A study of Homo sapiens with 24 samples.

Results

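The chromosome 19p12 zinc finger cluster is a run of KRAB zinc finger genes on the short arm of human chromosome 19. The 34 members described here, of 19702 genes in the count table, were chosen by symbol as zinc finger genes between base 19785839 (start of ZNF506) and base 24129961 (end of ZNF254) of GRCh38, a segment of 4344123 bases with 18 members on the plus and 16 on the minus strand. They were picked because most of them were silent in one of the cell lines studied and expressed in the other. That difference in level is therefore a description here and carries no test. Treatment responses within a line were not used in the choice.

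The libraries were made from messenger RNA of PC9 and H1975, established human lung adenocarcinoma cell lines whose EGFR gene, which encodes a growth factor receptor, is mutated to an active form. PC9 cells were kept for 24 h without drug (control), with 2 nM almonertinib, with 0.3 nM paclitaxel or with both drugs. H1975 cells were kept for 24 h without drug, with 1 nM almonertinib, with 1 nM paclitaxel or with both. Almonertinib is a covalent inhibitor of mutant EGFR and paclitaxel is a taxane that stabilises microtubules. The labels give no separate doses for the combination, and the single doses differ between the lines, so line and dose cannot be told apart in a difference between the lines. Each of the 8 groups had 3 libraries, 24 in all, with 14232299 to 24245314 counts per library. The labels do not say that these libraries are separate cultures, so the p-values rest on the spread among libraries that may be technical repeats.

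KRAB zinc finger proteins bind DNA through arrays of C2H2 zinc fingers and, through their KRAB domain, recruit the corepressor TRIM28 (KAP1) and the histone methyltransferase SETDB1, which lay down repressive H3K9 methylation. Many of them bind transposable elements. The 19p12 genes arose by tandem duplication in primates and lie side by side. ZNF91 restrains SVA retrotransposons and ZNF93 restrains a family of L1 elements. The targets of most other members are less well known, so the results are ordered by position.

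The labelled cell type was checked against markers. All 6 epithelial markers (keratins, EPCAM and CDH1) were expressed in both lines, and their summed level was 15600 to 29800 CPM (counts scaled to the size of the library) in PC9 and 8900 to 15900 CPM in H1975. Of 5 lung adenocarcinoma lineage genes, 2 were expressed in PC9, with a summed level of 0.941 to 2.92 CPM and SFTA3 at 0, and 3 in H1975, with 35.0 to 89.4 CPM. The lung lineage factor NKX2-1 averaged 0.946 CPM in PC9 and 62.0 CPM in H1975, so the lung label of PC9 has little support from these genes. Markers of other cell types were few: COL1A2 and LUM (fibroblast) were at 0 in both lines, while 1 of 6 fibroblast, 1 of 5 immune and 1 of 3 endothelial genes were expressed in H1975 and 2, 1 and 2 in PC9.

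The promoter sequences of some members beside the boundaries of the silent stretches are shown first, so that silent and expressed neighbours can be compared letter by letter. ZNF91, ZNF675, ZNF681 and ZNF726 also lie beside a boundary, and their promoters are counted below but not printed. Each sequence runs 5′ to 3′ from 250 bases before to 50 bases after the annotated start, is taken from RefSeq (GRCh38.p14), and has CCAAT boxes (the letters bound by NF-Y) and the letters CCGGAA (the core read by ETS factors), on either strand, in capitals. On the reverse strand CCGGAA reads TTCCGG. The windows are chr19:20923001-20923300 on the plus strand for ZNF85, chr19:21020407-21020706 on the plus strand for ZNF430, chr19:21081953-21082252 on the plus strand for ZNF714, chr19:21141790-21142089 on the plus strand for ZNF431, chr19:21329361-21329660 on the minus strand for ZNF708 and chr19:24086937-24087236 on the plus strand for ZNF254.
ZNF85: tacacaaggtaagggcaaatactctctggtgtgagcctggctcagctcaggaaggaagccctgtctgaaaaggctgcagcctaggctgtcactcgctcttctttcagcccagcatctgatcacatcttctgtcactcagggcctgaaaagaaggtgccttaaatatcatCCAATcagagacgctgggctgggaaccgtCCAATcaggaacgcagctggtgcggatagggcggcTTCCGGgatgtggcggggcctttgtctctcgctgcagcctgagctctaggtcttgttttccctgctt
ZNF430: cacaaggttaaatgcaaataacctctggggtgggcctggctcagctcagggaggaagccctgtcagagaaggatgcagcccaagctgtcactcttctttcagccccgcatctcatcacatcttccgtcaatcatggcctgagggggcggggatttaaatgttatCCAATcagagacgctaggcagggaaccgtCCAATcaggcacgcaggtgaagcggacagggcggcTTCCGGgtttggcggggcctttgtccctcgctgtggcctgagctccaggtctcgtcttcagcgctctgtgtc
ZNF714: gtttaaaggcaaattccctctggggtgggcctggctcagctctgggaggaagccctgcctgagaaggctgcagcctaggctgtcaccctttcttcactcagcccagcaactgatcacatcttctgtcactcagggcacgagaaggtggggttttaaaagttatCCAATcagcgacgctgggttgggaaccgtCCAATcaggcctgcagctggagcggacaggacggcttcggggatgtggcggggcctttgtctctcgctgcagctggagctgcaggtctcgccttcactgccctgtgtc
ZNF431: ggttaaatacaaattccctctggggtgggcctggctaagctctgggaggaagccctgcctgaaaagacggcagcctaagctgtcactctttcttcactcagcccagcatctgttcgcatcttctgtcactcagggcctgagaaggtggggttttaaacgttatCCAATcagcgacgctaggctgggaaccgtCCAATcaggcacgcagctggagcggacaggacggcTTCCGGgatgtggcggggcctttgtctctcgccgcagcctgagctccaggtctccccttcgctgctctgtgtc
ZNF708: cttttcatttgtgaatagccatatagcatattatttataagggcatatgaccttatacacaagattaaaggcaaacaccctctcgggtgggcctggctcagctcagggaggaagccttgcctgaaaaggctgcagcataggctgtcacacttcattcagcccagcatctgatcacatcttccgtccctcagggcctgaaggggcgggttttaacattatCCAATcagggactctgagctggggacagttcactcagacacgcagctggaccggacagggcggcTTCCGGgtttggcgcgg
ZNF254: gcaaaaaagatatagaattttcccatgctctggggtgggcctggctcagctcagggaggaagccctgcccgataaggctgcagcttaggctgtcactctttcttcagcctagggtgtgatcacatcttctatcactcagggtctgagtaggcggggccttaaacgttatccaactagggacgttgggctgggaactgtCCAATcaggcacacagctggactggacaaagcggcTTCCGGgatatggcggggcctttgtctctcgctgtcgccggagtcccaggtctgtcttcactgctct

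ZNF85 was silent in PC9 and lies just before ZNF430, ZNF714 and ZNF431, the trio with counts in PC9; ZNF708 lies just after them and was silent again. ZNF254 is the last member and had low counts in PC9. The promoters of ZNF714 and ZNF431 were identical at 91.0% of aligned bases and those of ZNF430 and ZNF431 at 84.3%. The promoter of the silent ZNF85 was identical to that of ZNF431 at 81.8%, and its pair of CCAAT boxes has the same spacing of 29 bases as in ZNF430, ZNF714 and ZNF431. In ZNF85 the CCAAT boxes begin 81 and 52 bases before the start, and in ZNF431 they begin 87 and 58 bases before it. ZNF708 has 1 CCAAT box, 31 bases before its annotated start, and its CCGGAA match begins at base 34 after the start, so its window sits further upstream on the shared sequence. End to end, the ZNF708 window was identical to that of ZNF85 at 58.1%, ZNF430 at 57.4%, ZNF714 at 57.6% and ZNF431 at 56.7%. Of the boundary members not printed, ZNF675, which had low counts in PC9, was identical to ZNF431 at 65.9%. Its highest identity with any member was 71.5%, with ZNF708, and whether its window is also shifted was not tested. For the silent ZNF91, ZNF681 and ZNF726 the identity with ZNF431 was 83.5%, 82.4% and 82.2%.

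RefSeq promoter entries were matched for 26 of the 34 members. CCAAT on either strand was in 25 of these 26 promoters (96.2%), against 34.6% of the 35087 other promoters of the same length, and at least 2 copies were in 69.2% against 10.7%. CCGGAA on either strand was in 23 of 26 (88.5%), against 17.2%. TATAAA was in 11.5% of the members' promoters and 11.5% of the others. The members' promoters held 8 to 16 CpG dinucleotides (median 10), against a median of 14 in the others. Over the 325 pairs of members the promoters were identical at 49.2% to 91.0% of aligned bases (median 77.3%), the lowest being ZNF682 with ZNF730. ZNF682 has 2 entries: the one counted holds CCGGAA and lacks CCAAT, and the other holds CCAAT and lacks CCGGAA. With the other entry, CCAAT was in 26 of 26 and CCGGAA in 22 of 26, and the lowest identity was 48.9%. For ZNF429, ZNF43, ZNF730 and ZNF254, and for the counted entry of ZNF682, the RefSeq window lies inside the gene as placed by GENCODE v29. ZNF254 begins at base 24033405 there, while its window begins at base 24086937. These windows may therefore not hold the start of the transcripts that were counted. The other entry of ZNF682 spans the GENCODE start of that gene, at base 20039506.
The same letters were found in promoters of members with and without PC9 counts. CCAAT was in all 5 promoters of members with at least 0.05 CPM in PC9 and in 18 of 19 of those near 0 in PC9 but expressed in H1975; CCGGAA was in 4 of 5 and in 17 of 19. ZNF682 is the gene of the 19 without CCAAT, and with its other entry the counts were 19 of 19 and 16 of 19. CpG numbers had a median of 10 in both sets.

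In H1975 the cluster was active along its whole length apart from a block of silent genes beyond its middle. A member is called expressed here when its mean over the 12 libraries of a line was at least 0.5 CPM, low from 0.05 CPM to under 0.5 CPM, and at or near 0 below 0.05 CPM. In H1975, 28 members were expressed, each with counts in all 12 libraries, and 6 members (ZNF208, ZNF729, ZNF98, ZNF492, ZNF99 and ZNF728) had no count in any of the 24 libraries. A count of 0 over the 12 libraries of a line allows up to 3 counts, which is 0.0125 CPM in PC9 and 0.0129 CPM in H1975, for counting error only. ZNF729, ZNF98, ZNF492, ZNF99 and ZNF728 follow each other on the chromosome, and ZNF723, a gene of the table that lies among them and is not listed as a member, was also at 0 in both lines. ZNF208 lies apart from them, before ZNF257 and ZNF676, which were expressed in H1975.

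The 28 members expressed in H1975 ranged from 2.54 CPM (ZNF730) to 21.1 CPM (ZNF85), with a median of 7.54 CPM. Per kb of exon sequence they had a median of 1.14 CPM, against 3.35 CPM for all 12092 genes expressed in H1975. RNA of the cluster was thus at a modest level. ZNF85 was highest at 4.53 CPM per kb, followed by ZNF738 at 3.31 and ZNF486 at 2.56, and ZNF493 was lowest at 0.333 CPM per kb. Over the 12 H1975 libraries ZNF85 had 17.7 CPM at the lowest, 21.1 at the median and 27.3 at the highest. ZNF738 had 10.2, 12.7 and 16.0 CPM, and ZNF486 had 8.01, 11.1 and 15.4 CPM. The libraries of ZNF738 and ZNF486 overlapped on this scale. ZNF91, the SVA repressor, had 6.20, 10.4 and 16.0 CPM, and ZNF93, the L1 repressor, had 8.48, 12.2 and 18.4 CPM. A summed level over all members was 192 to 282 CPM per H1975 library (median 238 CPM).

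In PC9 nearly all of the cluster was silent. The 34 members together had 706 raw counts over 12 PC9 libraries, against 55559 over 12 H1975 libraries, and their summed level was 1.90 to 3.85 CPM per PC9 library (median 3.05 CPM). In PC9, 29 members were at or near 0, 4 were low and 1, ZNF431, was expressed. Of the 706 counts, 61.3% were in ZNF431, 689 were in ZNF431, ZNF430, ZNF254, ZNF675 and ZNF714, and 17 were spread over the other 29. No count at all was seen in PC9 for 18 members, 12 of which had counts in H1975, and another 11 had 1 to 4 counts in all. In bulk RNA fewer expressing cells and less RNA per cell cannot be told apart.

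Expressed in H1975 and at or near 0 in PC9 were 23 members, where over all genes 223 of the 12092 genes expressed in H1975 met the same rule (1.84%; 1.66% without the members). The rule that chose the members used this contrast, so nothing is read from these shares. Among the 194 other ZNF and ZFP genes of chromosome 19 that were expressed in H1975, 19 were at or near 0 in PC9 (9.79%), and among the 230 on other chromosomes 6 were (2.61%). The opposite pattern, expressed in PC9 and at or near 0 in H1975, was met by 3.28% of 12458 genes and by no member. The other 220 ZNF and ZFP genes of chromosome 19 had summed levels of 2300 to 3190 CPM in PC9 and 2160 to 2740 CPM in H1975, ranges that overlap. A sum is led by the most abundant genes, and the median gene of the 220 had 2.13 CPM in PC9 and 3.84 CPM in H1975. Of the 220, 164 were expressed and 37 were at or near 0 in PC9, against 194 and 11 in H1975.

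**Figure D1:**
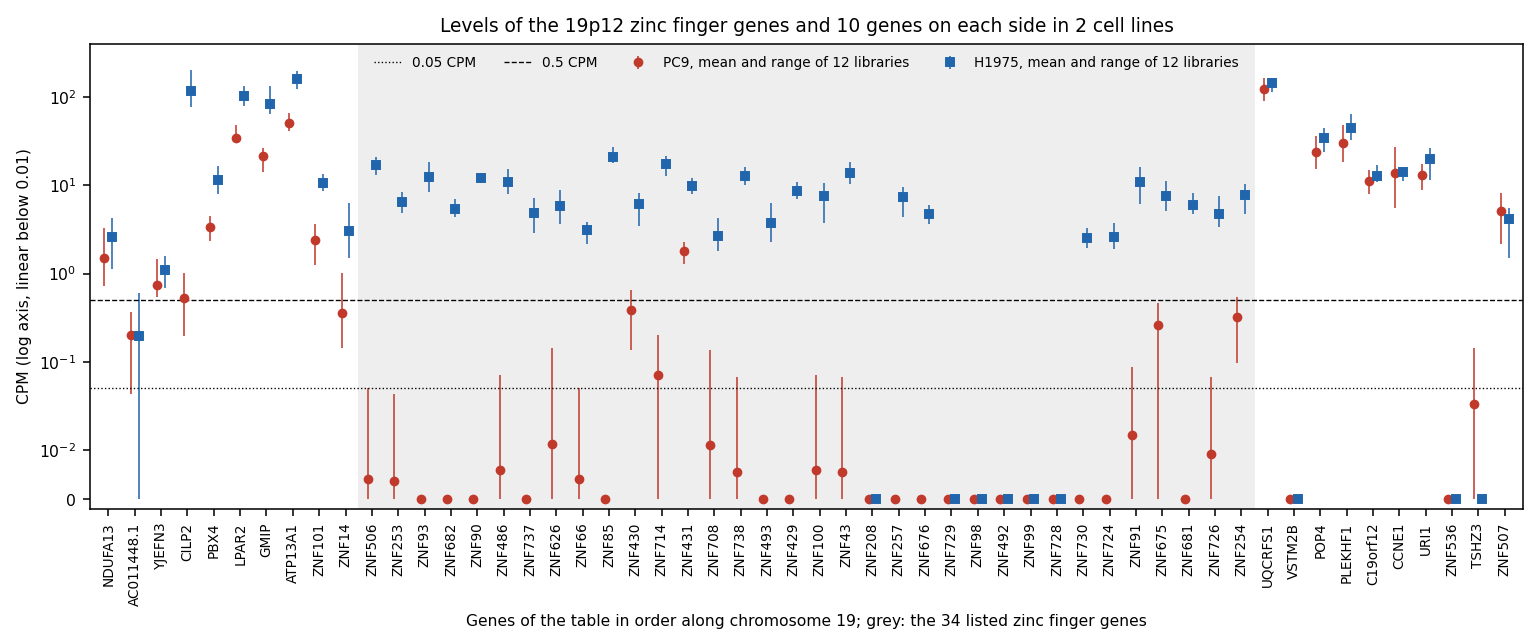
Mean CPM (vertical axis, logarithmic and linear below 0.01) of the 34 members (grey) and of 10 genes of the table on each side, in order along the chromosome, with bars from the lowest to the highest of 12 libraries per line. PC9 (circles) lies at or near 0 for 29 members while H1975 (squares) lies between 2.54 and 21.1 CPM for 28; the 2 genes inside the segment that are not members are left out.

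On the telomeric side, with the lower coordinates, the edge of the silent stretch lies between ZNF14 and ZNF506. ZNF101, a zinc finger gene outside the list, had 1.26 to 3.66 CPM over the PC9 libraries (mean 2.39 ± 0.773, SD, n = 12) and 8.67 to 13.5 CPM over the H1975 libraries. ZNF14, which ends at base 19733097, was already low in PC9, with 88 counts in all and a mean of 0.361 CPM, and had a mean of 3.03 CPM in H1975. ZNF506 begins 52741 bases further on and had 1 count over the 12 PC9 libraries, against 3970 counts and 13.2 to 21.1 CPM (median 17.4) in H1975. Of the 10 genes before the segment none was at or near 0 in PC9, but most were lower there than in H1975. CILP2, a gene of a cartilage matrix protein family, averaged 0.534 CPM in PC9 and 118 CPM in H1975, a ratio of 221. For PBX4, LPAR2, GMIP and ATP13A1 the ratio of H1975 to PC9 was 3.39, 3.02, 3.90 and 3.20, and for ZNF101 and ZNF14 it was 4.48 and 8.39.

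From ZNF506 to ZNF85, 10 genes in a row were expressed in H1975 and at or near 0 in PC9. Over the 12 PC9 libraries these had 0 counts (ZNF93, ZNF682, ZNF90, ZNF737 and ZNF85), 1 count (ZNF506, ZNF253, ZNF486 and ZNF66) or 2 counts (ZNF626). For ZNF85, with 4931 counts in H1975, 3 counts over the PC9 group as the floor put H1975 at least 1700-fold higher. The ratio of ZNF66, with 1 count in PC9 and 726 in H1975, was 751 with a 95% counting interval of 135 to 29700. Over the 12 members at 0 in PC9 with counts in H1975, the lower bounds ran from 205-fold (ZNF730) to 1700-fold (ZNF85).

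The trio ZNF430, ZNF714 and ZNF431 interrupted the silence. ZNF430 had 2 to 14 raw counts per PC9 library (median 9.5) and a mean of 0.384 ± 0.199 CPM (SD, n = 12), against 48 to 193 counts and 6.21 ± 1.40 CPM in H1975, a ratio of 15.9 (95% counting interval 13.1 to 19.7). ZNF714 had 0 to 4 counts (median 1), was above 0 in 8 of 12 PC9 libraries and averaged 0.0716 CPM, just above the limit of 0.05 CPM, against 17.5 CPM in H1975. ZNF431 had 18 to 54 counts (median 34.5) and 1.78 ± 0.264 CPM in PC9, against 113 to 254 counts (median 195) and 9.88 ± 1.28 CPM in H1975. The PC9 libraries of ZNF431 reached 2.26 CPM at most and the H1975 libraries began at 8.05 CPM, so the lines did not overlap, and the ratio of 5.51 (5.02 to 6.07) was the smallest among the 28 members with counts. The intervals cover the counting error of PC9 only.

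The silence resumed with ZNF708 and held over 11 genes expressed in H1975, to ZNF91, with the 6 genes at 0 in both lines among them. Each of these 11 genes had 0 to 4 counts over the PC9 libraries, and ZNF91, with 4, had the highest mean below the limit of 0.05 CPM, at 0.0148 CPM. In H1975 ZNF708 had 25 to 101 counts (median 50) and ZNF738 had 174 to 307 (median 267). Of all runs of neighbouring expressed genes that are on in one line and at or near 0 in the other, these 11 genes and the 10 genes from ZNF506 to ZNF85 were the longest in the table. Next came 9 genes on chromosome X (GABRA3 to MAGEA6), expressed in PC9 and not in H1975, and then runs of 4, among them ZNF667 to ZNF470 on the long arm of chromosome 19. Genes at or near 0 in both lines were passed over in these runs. The members were chosen on this contrast, so nothing is read from the rank of their runs.

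At the centromeric end PC9 counts returned in ZNF675 and ZNF254. ZNF675 had 0 to 9 raw counts per PC9 library (median 5) and 0.260 ± 0.129 CPM, against 7.64 ± 1.92 CPM in H1975, a ratio of 30.0 (23.4 to 39.0). ZNF681 and ZNF726, which lie between them, had 0 and 2 counts in PC9 and 5.99 and 4.73 CPM in H1975. ZNF254 had 2 to 11 counts (median 6) and 0.324 ± 0.133 CPM in PC9, against 7.71 ± 1.63 CPM in H1975, a ratio of 23.9 (19.2 to 30.2). After ZNF254 no gene of the table follows for 5075359 bases. The next one, UQCRFS1, a subunit gene of the mitochondrial respiratory chain, averaged 123 CPM in PC9 and 143 CPM in H1975. By the limit of 0.05 CPM the last silent stretch ends between ZNF726 and ZNF254. Where PC9 levels return to 0.5 CPM or more can be placed no closer than between ZNF254 and UQCRFS1. Among the 10 genes after the segment, the 7 expressed in both lines had ratios of H1975 to PC9 from 0.80 (ZNF507) to 1.54 (URI1). All 10 lie beyond the gap of 5075359 bases, so they are not near neighbours of the segment.

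Reads of close relatives can be shared. The longest transcripts of most members shared under 6% of their 75-base stretches with other genes, so the counts of ZNF431 (2.38%) and ZNF430 (0.47%) rest mainly on their own sequence. ZNF98 (45.05%) and ZNF492 (24.48%) share sequence with each other, and ZNF724 shares 52.57% with AC092329.3, an overlapping gene of the table at 0 in both lines, so these are uncertain. Whether strand was used in counting is not given in the sources used here, so antisense reads cannot be told apart.

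**Figure D2:**
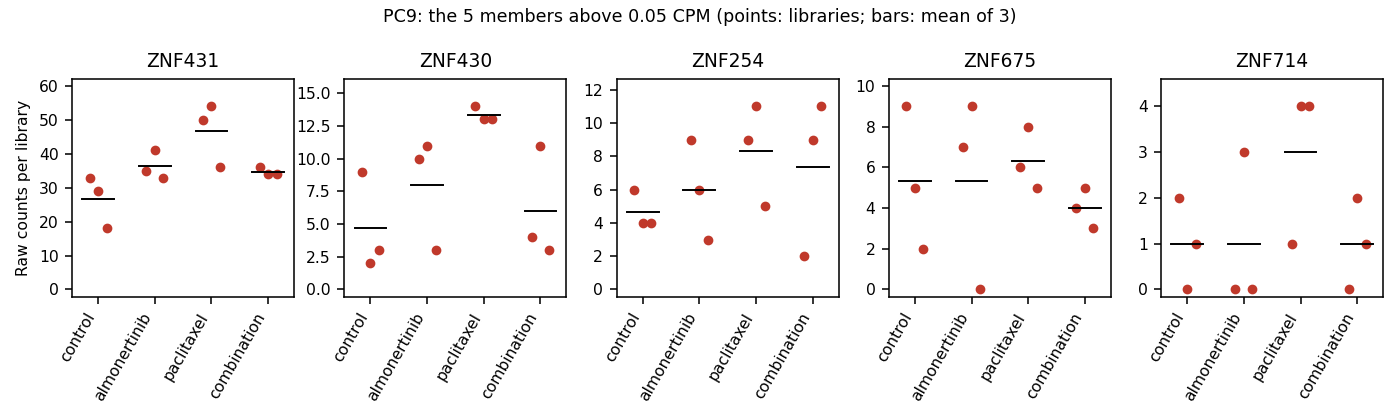
Raw counts per PC9 library (vertical axis) of the 5 members with at least 0.05 CPM, by treatment; points are libraries and bars the mean of 3. ZNF431 has 18 to 54 counts and the other members at most 14, and for ZNF430 the 3 paclitaxel libraries (14, 13 and 13) lie above all control libraries (9, 2 and 3).

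In PC9 the silent genes stayed at 0 or a few counts under every treatment. The 29 members at or near 0 had 17 counts over all PC9 libraries, and of these ZNF91 had 0, 0 and 0 counts in the controls and under almonertinib, 2, 1 and 0 under paclitaxel and 1, 0 and 0 under the combination. ZNF626 had 2 counts in 1 control library and 0 elsewhere. Only ZNF431 and ZNF430 passed the filter on low counts in PC9. Without the filter 16 members, all those with any count in PC9, were tested, and edgeR called 0 of 16 in each of the 6 PC9 comparisons, with 0 at an unadjusted p under 0.05. Of these 16, 11 had only 1 to 4 counts in all, so a change in them could hardly be called. ZNF626 under paclitaxel, for example, had a log2 change of -2.94 ± 2.03 (SE). The share of all genes called in that fit is not given here, so nothing is read from the 0. In that fit ZNF254, ZNF675 and ZNF714 had log2 changes under paclitaxel of 0.34 ± 0.58, -0.22 ± 0.64 and 1.04 ± 1.09 (SE), errors too wide to exclude a 2-fold change.

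ZNF431 had 1.73, 1.96 and 1.27 CPM in the PC9 controls, 1.79, 1.78 and 1.60 under almonertinib, 2.17, 2.26 and 1.81 under paclitaxel and 1.74, 1.56 and 1.68 under the combination. The treated libraries overlapped with the controls under each treatment. By edgeR's quasi-likelihood test the log2 changes against control were 0.06 (95% interval -0.41 to 0.53) for almonertinib, 0.31 (-0.15 to 0.77) for paclitaxel and -0.01 (-0.48 to 0.47) for the combination, with adjusted p of 0.832, 0.246 and 0.984.

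ZNF430 had 0.470, 0.135 and 0.212 CPM in the PC9 controls and 0.609, 0.544 and 0.653 under paclitaxel, where all 3 libraries were higher than all 3 controls. Under almonertinib it had 0.512, 0.479 and 0.146 CPM and under the combination 0.194, 0.505 and 0.148, which overlapped with the controls. The log2 change was 1.02 (95% interval -0.11 to 2.15, edgeR adjusted p = 0.118) for paclitaxel, 0.39 for almonertinib and -0.02 for the combination, and none passed. Against this, 56.7% of 12796 genes tested in PC9 were called under almonertinib, 55.0% under paclitaxel and 50.7% under the combination. Of the 2 members tested, 0 were called by edgeR or by DESeq2 in any of these comparisons and 0 had an unadjusted p under 0.05.
The paclitaxel change of ZNF430 rests on 9, 2 and 3 raw counts in the controls, and among the alternatives run it passed only without control library 1, where it was 1.74 (edgeR adjusted p = 0.0451). With each library's trend on transcript length and GC removed it was 0.38 (edgeR adjusted p = 0.538). For ZNF431 the sign of the paclitaxel change depended on the scaling: with the same trend removed it was -0.56 (edgeR adjusted p = 0.0398), and Spearman's rho of deviation with GC was 0.171 to 0.387 in the PC9 control libraries and -0.605 to -0.429 in the paclitaxel libraries.

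The combination was also set against each single drug in PC9. For ZNF430 the log2 change was -0.41 against almonertinib and -1.03 against paclitaxel, and for ZNF431 -0.07 and -0.31. The interaction of the drugs (combination minus both single drugs plus control) was -1.42 for ZNF430 (95% interval -3.05 to 0.20, edgeR adjusted p = 0.141) and -0.37 for ZNF431. Of 2 members tested, edgeR and DESeq2 called 0 in each, with 0 at an unadjusted p under 0.05, where 20.1%, 44.1% and 45.5% of all genes were called by edgeR. ZNF430 passed in the comparison with paclitaxel without combination library 2 (-1.77), and in the interaction without that library (-2.16) or without almonertinib library 3 (-1.81), by edgeR. With the length and GC trend removed, the interaction was -0.51 for ZNF430 and 0.62 for ZNF431, and the comparison with paclitaxel gave -0.62 and 0.12, none of them called. The median of these 2 members thus moved from -0.90 to 0.05 in the interaction and from -0.67 to -0.25 against paclitaxel.

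In H1975, where all 28 expressed members could be tested and the 6 at 0 could not, no member passed in any of the 6 comparisons. Under almonertinib 24 members had a log2 change above 0 and 4 below (median 0.15, against 0.02 over all 12345 genes tested), from -0.43 (ZNF724) to 0.68 (ZNF493). EdgeR and DESeq2 called 0 of 28, and 0 had an unadjusted p under 0.05, against 1.95% of all genes called by edgeR and 10.4% at an unadjusted p under 0.05. For 24 members the 95% interval lay within a 2-fold change either way. Other ZNF and ZFP genes of chromosome 19 had a median of 0.22 in the same comparison, with 0 of 200 called by edgeR, 1 by DESeq2 and 14 at an unadjusted p under 0.05.

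The H1975 almonertinib libraries were split. ZNF493 had 2.82, 2.48 and 4.20 CPM in the controls and 2.35, 6.32 and 6.38 under almonertinib. ZNF91 had 8.46, 7.45 and 10.5 CPM in the controls and 6.20, 16.0 and 13.1 under almonertinib. ZNF93 had 10.4, 10.2 and 13.6 CPM and then 8.48, 16.0 and 18.4. In each of these genes almonertinib library 1 was below every control and libraries 2 and 3 were above every control. Over the 28 members the median deviation from the mean of each gene was -0.38 (log2 of CPM + 0.5) in almonertinib library 1, with 5 of 28 members above their mean, and 0.24 and 0.29 in libraries 2 and 3, with 22 and 23 above.

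Without almonertinib library 1 the result changed. Then 6 of 28 members were higher than the controls by edgeR: ZNF493 (log2 change 1.00, adjusted p = 0.0294), ZNF626 (0.82), ZNF91 (0.73), ZNF253 (0.62), ZNF254 (0.61) and ZNF93 (0.60), where 3.38% of 12441 genes were called higher. That library also stood apart over all genes: its deviations correlated with GC content at Spearman rho 0.803 and its mean correlation with the other 2 libraries of its group was 0.962, the lowest of the 24. The members are poor in GC, with a median of 37.4% in their longest transcripts against 49.0% in genes expressed in H1975. Other ZNF and ZFP genes of chromosome 19 had a median deviation of -0.23 in the same library, and all expressed genes 0.06. With the trend on length and GC content removed and the library kept, the members' median change under almonertinib was 0.12 and edgeR called 0 of 28; the part of GC content in the calls made without the library was not tested.

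**Figure D3:**
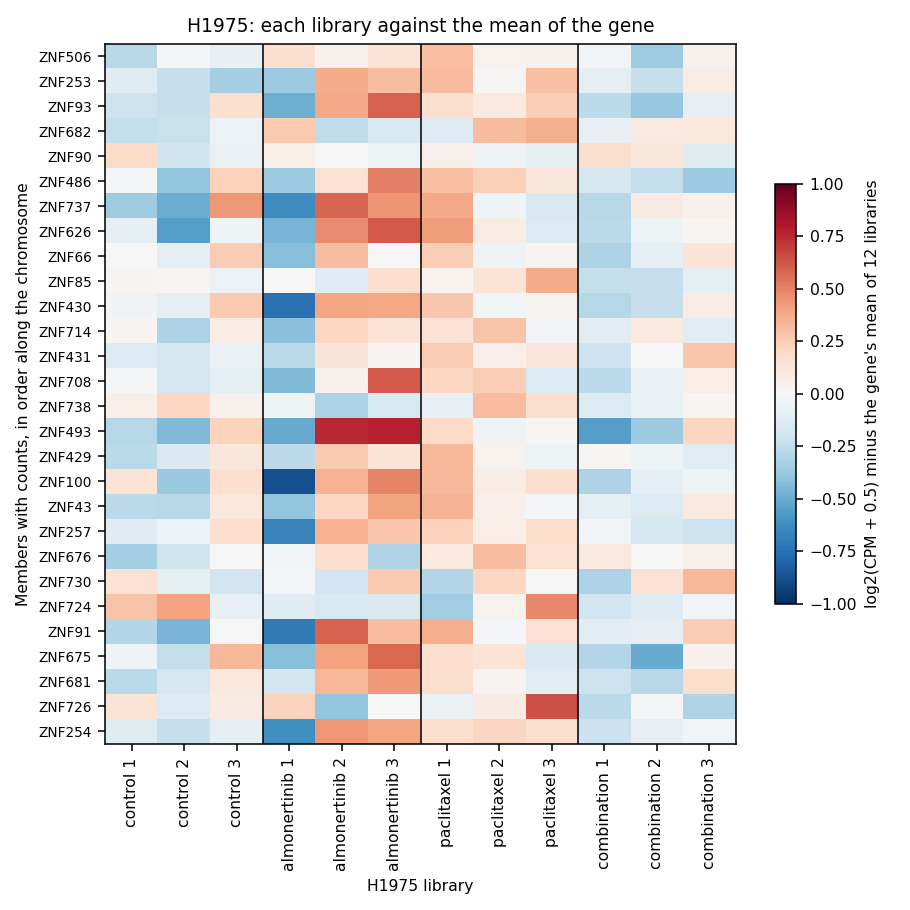
Deviation of each H1975 library (columns, by treatment and library number) from the gene's mean of 12 libraries, in log2 of CPM + 0.5, for the 28 members with counts (lines, in order along the chromosome). Almonertinib library 1 is below the mean for 23 of 28 members and almonertinib libraries 2 and 3 are above it for 22 and 23.

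**Figure D4:**
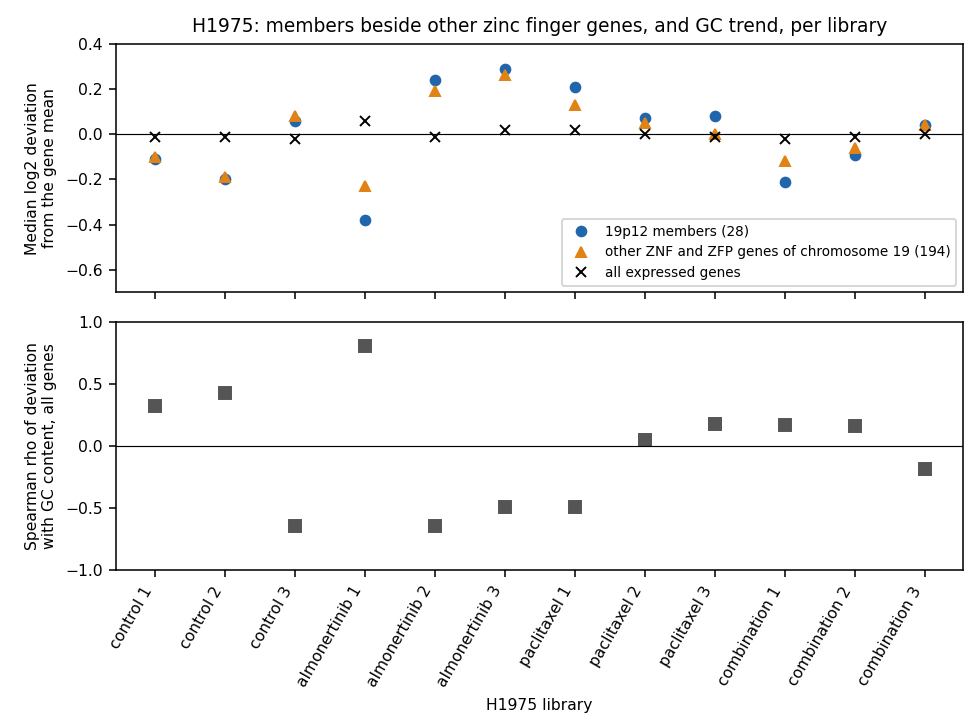
Upper panel: median log2 deviation per H1975 library of the 28 members, of 194 other ZNF and ZFP genes of chromosome 19 and of all expressed genes. Lower panel: Spearman rho between deviation and GC content over all genes; almonertinib library 1 has a median of -0.38 for the members and a rho of 0.803, and almonertinib libraries 2 and 3 have 0.24 and 0.29 with rho of -0.641 and -0.488.

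Under paclitaxel in H1975, 26 of 28 members had a log2 change above 0, with a median of 0.21 against -0.03 over all genes, from -0.14 (ZNF724) to 0.46 (ZNF253). ZNF253 had 5.82, 5.36 and 4.96 CPM in the controls and 8.04, 6.41 and 7.97 under paclitaxel, so all treated libraries were higher than all controls, and its change had a 95% interval of -0.02 to 0.94 (edgeR adjusted p = 0.645). EdgeR and DESeq2 called 0 of 28 and 0 had an unadjusted p under 0.05, against 0.64% and 8.16% of all genes. For 27 members the interval lay within 2-fold. The median of other ZNF and ZFP genes of chromosome 19 was 0.11. With the length and GC trend removed, 21 of 28 members were above 0 and 7 below, with a median of 0.18.

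Under the combination in H1975 the members were spread around 0, with 16 above and 12 below, a median of 0.01 against -0.04 over all genes, and a range from -0.40 (ZNF724) to 0.27 (ZNF91). EdgeR and DESeq2 called 0 of 28 and 0 had an unadjusted p under 0.05, against 2.46% and 18.6% of all genes. All 28 intervals lay within 2-fold. ZNF724, which gave the lowest value under each of the 3 treatments, had 3.18, 3.50 and 2.36 CPM in the controls, 2.28, 2.22 and 2.23 under almonertinib, 1.88, 2.60 and 3.71 under paclitaxel and 2.15, 2.27 and 2.46 under the combination. Its almonertinib libraries lay below all controls, while the others overlapped with them; the 3 comparisons share the same controls. The spread around 0 depended on the scaling. With the length and GC trend removed, 24 of 28 members were above 0 and 4 below, with a median of 0.17. In that fit ZNF91 passed under the combination (0.46, edgeR adjusted p = 0.0355).

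**Figure D5:**
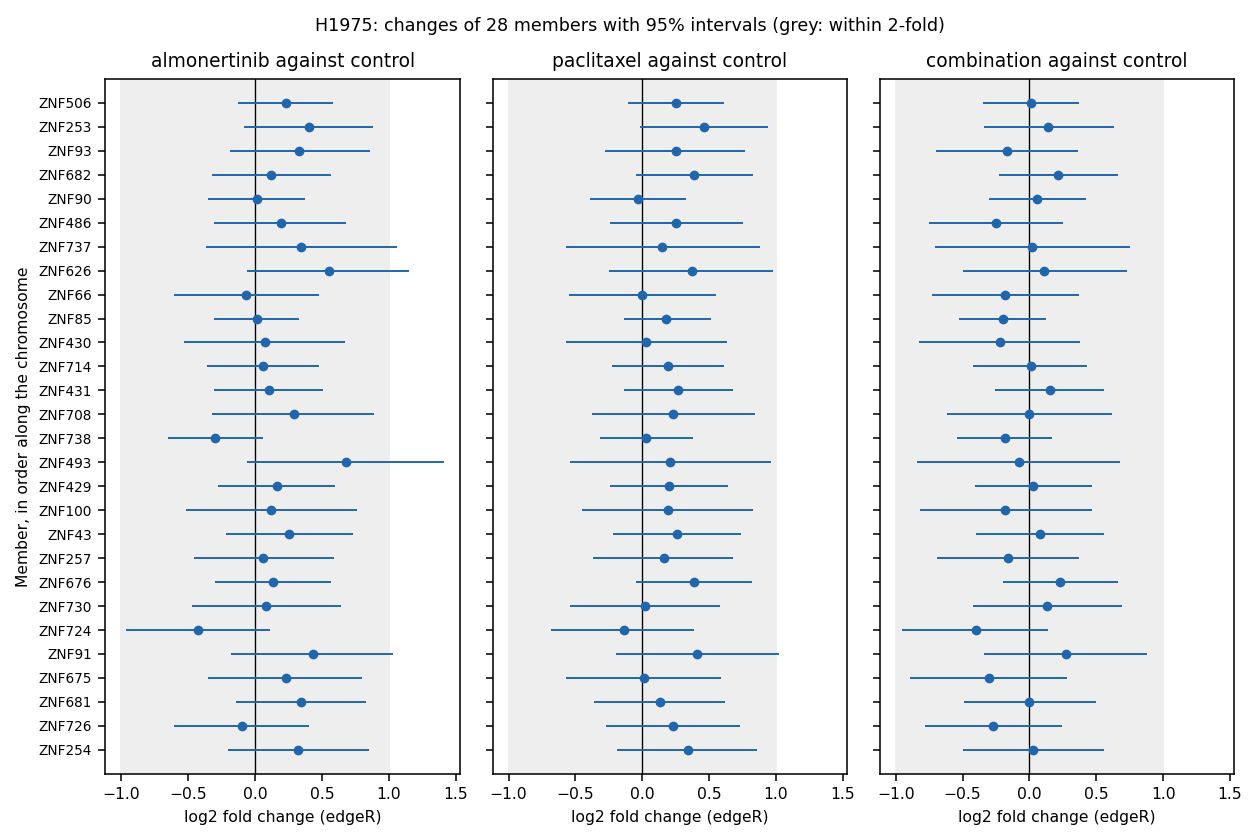
Log2 fold changes (points) with 95% intervals (lines) of the 28 members in H1975, from edgeR, for each treatment against the same 3 control libraries; grey marks changes within 2-fold. The medians are 0.15, 0.21 and 0.01, and 24, 27 and 28 intervals lie within 2-fold.

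Set against each single drug in H1975, the combination gave mostly negative changes: 21 of 28 against almonertinib (median -0.22, all genes -0.07) and 26 of 28 against paclitaxel (median -0.24, all genes -0.04). EdgeR and DESeq2 called no member and edgeR called 0.0% of all genes in both. An unadjusted p under 0.05 was reached by 1 member against almonertinib (9.96% of all genes), ZNF493 at -0.75, and by 2 against paclitaxel (13.8% of all genes), ZNF85 at -0.39 and ZNF486 at -0.50. ZNF85 had 21.5, 23.2 and 27.3 CPM under paclitaxel and 17.7, 17.8 and 19.7 under the combination, and ZNF486 had 13.3, 12.7 and 11.6 and then 9.45, 9.0 and 8.20. In both genes every combination library was below every paclitaxel library, and neither passed (edgeR adjusted p = 0.268 and 0.362). With the length and GC trend removed, the medians were 0.07 against almonertinib, with 8 of 28 members below 0, and 0.00 against paclitaxel, with 14 of 28 below 0. In that fit ZNF85 against paclitaxel was -0.02 and ZNF486 was -0.27. Without almonertinib library 1, edgeR called 6 members lower in the combination than under almonertinib (ZNF93, ZNF626, ZNF493, ZNF675, ZNF254 and ZNF486, from -1.08 to -0.58), where 7.42% of all genes were called lower.

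The interaction of the drugs in H1975 had a median of -0.42 over the members (all genes -0.06), with 24 of 28 below 0. EdgeR and DESeq2 called 0 of 28, against 0.672% of all genes called by edgeR, and 2 members, ZNF93 at -0.75 and ZNF253 at -0.72, had an unadjusted p under 0.05 (10.3% of all genes). The median moved to -0.14 with the length and GC trend removed and to -0.64 without almonertinib library 1, where edgeR called 4 members lower (ZNF93, ZNF626, ZNF254 and ZNF253; 2.68% of all genes were called lower). Only 12 of 28 intervals lay within 2-fold here.

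The responses of the lines could be compared for ZNF431 and ZNF430 alone. For ZNF431 the PC9 response minus the H1975 response was -0.05 (95% interval -0.60 to 0.49) for almonertinib, 0.05 (-0.48 to 0.57) for paclitaxel and -0.17 (-0.71 to 0.38) for the combination. For ZNF430 the differences were 0.31 (-1.01 to 1.63), 0.99 (-0.25 to 2.23) and 0.19 (-1.22 to 1.61). EdgeR and DESeq2 called 0 of 2 and 0 had an unadjusted p under 0.05, against 16.6%, 17.1% and 18.0% of 13380 genes called by edgeR. In this fit the intervals of ZNF431 exclude a 2-fold difference between the lines, and those of ZNF430 do not. With the length and GC trend removed the paclitaxel difference of ZNF431 was -0.84 (edgeR adjusted p = 0.034), so that exclusion depends on the scaling and is given for the main fit only.

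The genes through which KRAB proteins act were measured in both lines. Of 26 listed corepressor and heterochromatin genes, 25 were tested in PC9, and edgeR called 10 higher and 9 lower under almonertinib, 11 and 8 under paclitaxel and 5 and 6 under the combination. Over all genes tested in PC9, 56.7%, 55.0% and 50.7% were called in the same order, so the 11 of 25 under the combination were not above the share of all genes. TRIM28 had a log2 change of 0.04 under almonertinib (edgeR adjusted p = 0.737), fell by 0.46 under paclitaxel (adjusted p = 0.00113) and had -0.19 under the combination (adjusted p = 0.119). SETDB1 fell by 0.27 under almonertinib (edgeR adjusted p = 0.0274) and had 0.16 and 0.10 under paclitaxel and the combination, which did not pass. With the length and GC trend removed SETDB1 was 0.04 under almonertinib, not called, and 0.27 and 0.21 under the other treatments, both called, while TRIM28 was -0.13, not called, -0.30 and -0.31, both called. ATRX, a chromatin remodeller of heterochromatin, rose by 2.07 ± 0.27 (log2, SE) under almonertinib, 2.24 ± 0.27 under paclitaxel and 1.84 ± 0.28 under the combination (edgeR adjusted p of 9.19e-06, 9.79e-06 and 4.23e-05). CBX3, which encodes the heterochromatin protein HP1 gamma, rose by 0.89 under almonertinib, 1.00 under paclitaxel and 0.41 under the combination. RESF1, a factor in retroelement silencing, rose by 1.40, 1.55 and 1.08 in the same order. UHRF1, which guides maintenance DNA methylation, fell by 1.42 under almonertinib, fell by 0.31 under paclitaxel and fell by 1.45 under the combination. DNMT1, the maintenance methyltransferase, fell by 0.83 under almonertinib and fell by 0.66 under the combination, and had 0.10 under paclitaxel (edgeR adjusted p = 0.346). ZNF274, a KRAB zinc finger protein that recruits SETDB1, fell by 0.84 under almonertinib, fell by 0.63 under paclitaxel and fell by 0.89 under the combination. DAXX, a chaperone of histone H3.3, fell by 0.55, fell by 0.50 and fell by 0.27 in that order.
In H1975 edgeR called 0 of 26 of these genes under each treatment; DESeq2 called 0, 0 and 1 under almonertinib, paclitaxel and the combination, and 0, 0 and 6 had an unadjusted p under 0.05. Over all genes edgeR called 1.95%, 0.64% and 2.46%, and 10.4%, 8.16% and 18.6% had an unadjusted p under 0.05. The difference between the lines passed for 3 higher and 4 lower in PC9 under almonertinib, 4 and 1 under paclitaxel and 2 and 4 under the combination, of 26 tested, against 16.6%, 17.1% and 18.0% of all genes called in either direction. Of the other ZNF and ZFP genes of chromosome 19, edgeR called 44 higher and 28 lower of 172 in PC9 under almonertinib, 48 and 18 under paclitaxel and 18 and 22 under the combination. With the length and GC trend removed, edgeR called 6 corepressor genes higher and 7 lower in PC9 under almonertinib. It called 6 and 7 under paclitaxel and 6 and 11 under the combination. Of the other zinc finger genes it called 37 and 35, 31 and 27, and 22 and 28. The share of all genes called in that fit is not given here, so nothing is read from these counts. In that fit ATRX under paclitaxel was 1.37, CBX3 was 0.48 under almonertinib and 0.51 under paclitaxel, and DAXX under paclitaxel was -0.29, all still called, while UHRF1 under paclitaxel was -0.15 and not called. The paclitaxel call of UHRF1 was also lost without control library 1 or without paclitaxel library 1 or 2, the SETDB1 call without control library 1 or 3 or almonertinib library 3, and the combination calls of CBX3 and DAXX without control library 3 or combination library 2.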

How the data were processed

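The authors deposited 1 table of raw read counts per gene (19702 genes, 24 libraries), whole numbers without normalisation, and every column was used. Per the submitters' processing notes the authors used HTSeq and HISAT2 2.2.1 with the build GRCh38; the annotation, the HTSeq version and settings and the strand counted are not given in the sources used here. The members and gene lists were chosen with earlier results of these data known. All 34 members matched the table by Ensembl ID; symbols matched 19661 genes, and GENCODE v29 (GRCh38) gave positions for 19632 and lengths for 99.5%.

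Levels are CPM, counts scaled by library total and the TMM factor of a fit of all 24 libraries. Treatments were tested within each line (12 libraries, 4 groups) with edgeR 4.0.16 in R 4.3.3: filterByExpr left 12796 genes in PC9 and 12345 in H1975, TMM factors, a quasi-likelihood test, two-sided, with Benjamini-Hochberg adjustment over all genes tested and calls at an adjusted p under 0.05. The typical coefficient of variation between libraries was 0.111 in PC9 and 0.191 in H1975. Differences between the lines came from a fit of all 24 libraries (13380 genes). The scripts were tested on simulated data. Counting intervals of ratios use the exact 95% interval of the PC9 count and take the H1975 level as fixed, so they leave out the counting error of H1975. The sign ± is SD for levels and SE for log2 changes.

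Members named with values were those on each side of a boundary between silent and expressed members in PC9, those highest per kb in H1975, and the lowest and highest or unadjusted calls of each comparison; the last were chosen after their values were seen. Corepressor genes named were up to 2 called in each direction with the smallest p; these, TRIM28 and SETDB1 were then given in all 3 treatments of PC9, a choice made after their values were seen. Promoters are from RefSeq (GRCh38.p14), aligned end to end, with identity as the share of aligned columns, gaps included.

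Alternatives were DESeq2 1.42.0, RLE factors, a block for the replicate number, keeping all genes with counts, a stricter filter (a mean of 5 CPM and 1 CPM in 3 libraries), an offset per library for transcript length and GC (splines of 5 degrees of freedom each), and leaving out each library. The labels do not say what a replicate number marks. Deviations of same-numbered libraries correlated by over 0.1 in all 3 pairs only between almonertinib and control in PC9 (0.119, 0.106 and 0.394) and between combination and control in H1975 (0.110, 0.169 and 0.345), among the pairs with a control.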

Additional observations from a re-analysis of the deposited data

How the results depend on the processing

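The number of members expressed in H1975 and at or near 0 in PC9 was 23 without TMM factors, 24 with a limit of 0.1 CPM and 23 in the control libraries alone. The replicate block left 0 members called in each of the 15 comparisons; under it the combination change of ZNF431 in PC9 was 0.00. RLE factors, no filter and DESeq2 also left 0 called in each, and so did the stricter filter where a member remained to test, which was not so within PC9. The share of all genes called with the length and GC trend removed is not given here. With that trend removed edgeR called 1 member in the PC9 paclitaxel, the H1975 combination and the PC9 minus H1975 paclitaxel comparisons. Signs turned with it for ZNF430 (-0.12) and ZNF431 (-0.50) under almonertinib and ZNF431 under paclitaxel (-0.56) in PC9, and in the differences between the lines for ZNF430 under almonertinib (-0.07) and the combination (-0.24) and for ZNF431 under paclitaxel (-0.84). They also turned for ZNF431 in the PC9 combination against almonertinib (0.05) and paclitaxel (0.12) and in the interaction (0.62), and under PC9 almonertinib for TRIM28 (-0.13) and SETDB1 (0.04); the cause was not tested. For values near 0 the sign also turned: PC9 combination changes became 0.01 for ZNF430 without a filter and by DESeq2, and for ZNF431 0.01 with RLE factors, 0.02 without a filter and 0.01 by DESeq2, and the paclitaxel difference of ZNF431 became -0.05 with RLE factors and by DESeq2.

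Leaving out 1 library, called members ranged from 0 to 6 in H1975 almonertinib against control and combination against almonertinib, 0 to 4 in the H1975 interaction, and 0 to 1 in PC9 paclitaxel against control, combination against paclitaxel and the interaction; in the other 9 comparisons they stayed at 0. Log2 changes whose sign turned ranged from -0.73 to 0.71 (ZNF430) and -0.16 to 0.12 (ZNF431) under the PC9 combination, -0.09 to 0.19 for ZNF431 under PC9 almonertinib and -0.42 to 0.05 for ZNF724 under H1975 paclitaxel. In the differences between the lines they ranged from -0.50 to 0.94 for ZNF430 under the combination, and for ZNF431 from -0.18 to 0.07 under almonertinib and -0.08 to 0.18 under paclitaxel. The calls of ATRX, RESF1 and ZNF274 in PC9 held under each alternative run in all 3 treatments; SETDB1 under almonertinib also lost its call without a filter (-0.26). Low counts of the members limit the tests most in PC9, where 32 members did not pass the filter on low counts. Of the 16 tested without the filter 0 were called, but 11 of these had only 1 to 4 counts in all, so nothing is read from that 0.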
